A study of Homo sapiens with 14 samples.

Results

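The 33 genes described here act in homologous recombination, in the Fanconi anaemia pathway and in the checkpoint signalling that surrounds them. Their members were chosen by gene symbol: all adenosines that the deposited table assigns to these 33 symbols were taken, which gave 1378 sites of 407343 in all, in 33 of 13721 genes. None of the 1378 sites is also assigned to another gene. Of the 1378 sites, 431 lie in DRACH (D is A, G or T; R is A or G; H is A, C or T), the 5-base motif of the main messenger RNA methyltransferase.

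N6-methyladenosine (m6A) was measured at single bases with GLORI, a chemical method in which unmethylated adenosines are deaminated and read as G while methylated ones are still read as A. A level below is the share of a site's reads that kept A, in percent. The groups were the ovarian line CAOV3 with 1 uM STM3675 for 24 h (2 libraries) and 6 lines with DMSO, the solvent, for 24 h (2 libraries each): 4 ovarian lines (CAOV3, COV644, EFO21, SKOV3), the lung line A549 and the oesophageal line OE21. STM3675 was applied in CAOV3 alone, and the study is about blocking METTL3, the enzyme subunit of that methyltransferase. The CAOV3 DMSO libraries serve both as controls of STM3675 and as 1 of the 6 lines, so the values of the treatment comparison and of the line comparison share libraries.

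Homologous recombination repairs a double-strand break by resecting its ends, pairing the single strand with the sister chromatid and copying it. The Fanconi pathway opens crosslinks between the DNA strands: a core ubiquitin ligase marks the FANCD2 and FANCI pair, and recombination factors then repair the break that follows. Ovarian cancers are often defective in these genes, which is a basis of treating them with inhibitors of PARP1.

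Each library held 14047302 to 28663588 reads with A or G over all listed sites, and the median member site had 17 to 36 reads. Keratin and epithelial marker genes were covered in all lines, lowest in SKOV3 (summed level 118 to 124 CPM) and highest in COV644 (2050 to 2179 CPM). Squamous genes summed to 8396 to 8480 CPM in OE21 against at most 497 CPM in any other library. TP63, KRT5, KRT14, KRT6A and SOX2 were each highest in OE21. KRT13 did not set it apart, with 306 and 514 CPM in OE21 and 313 and 467 CPM in COV644. Ovarian markers summed to 336 to 1496 CPM in the 4 ovarian lines with DMSO, against 13.2 to 32.2 CPM in A549 and OE21. Of these markers, MSLN and SOX17 were higher in every ovarian library than in A549 and OE21. WT1 was instead highest in A549 (8.16 and 8.49 CPM), and EMX2 was well covered in EFO21 alone. PAX8 in COV644 (25.1 and 18.8 CPM) was near its level in OE21 (27.1 and 20.1 CPM). MUC16 had no listed site. Of the 4 lung markers only NKX2-1 had listed sites, and it was at 0.0816 and 0.136 CPM in A549, so the lung origin of A549 had no marker behind it here. The median level of sites outside DRACH, where little m6A is known, was 3.33% to 4.14% in COV644 and OE21 and 8.85% to 15.8% in the other libraries, with the highest in SKOV3 replicate 2. The labels do not say that replicates were separate cultures, so p-values measure at most the spread between these libraries. For single m6A sites they rest on 1 dispersion shared by all sites of a comparison, not on the spread of that site's own replicates.

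The member sites were placed differently from the bulk of listed sites. Internal exons held 259 of the 431 member DRACH sites (60.1%) against 27.8% of all listed DRACH sites, and last exons held 149 (34.6%) against 65.6%. The internal exons concerned were long: their sites lay in exons with a median width of 662 nt, against 411 nt for all genes. Single exons carried much of a gene's list. Exon 11 of BRCA2 (4932 nt) held 19 of its 37 listed DRACH sites, exon 10 of BRCA1 (3426 nt) held 18 of 27, and exons 4 and 5 of PALB2 (1473 and 830 nt) held 15 and 11 of 29. The last exon of XRCC2 (exon 3, 4588 nt) held all 30 of its sites, and FANCF, a gene of 1 exon (3291 nt), held 12. Exon numbers are those of the deposited table. RAD51B and RAD51C had 6 and 3 listed sites, none of them in DRACH.

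The sequences below are the 5 bases around the measured adenosine (in capitals), 5′ to 3′ on the transcript as the deposited table gives them. They are shown for the 10 member sites with the largest falls with STM3675, 1 per gene, because the m6A results turn on them.
BLM, chromosome 15, position 90760773: ggAct
FANCI, chromosome 15, position 89316483: gaAct
BARD1, chromosome 2, position 214728716: agAct
ATR, chromosome 3, position 142562724: gaAct
FANCC, chromosome 9, position 95101567: ggAca
RBBP8, chromosome 18, position 22993385: tgAct
TP53BP1, chromosome 15, position 43432358: aaAct
FANCL, chromosome 2, position 58159480: ggAct
FANCF, chromosome 11, position 22624769: ggAca
FANCG, chromosome 9, position 35073996: ggAct
All 10 are in DRACH, 8 of them end in act, and 3 are ggAct. Coordinates are of GRCh38. Among all member DRACH sites outside chromosome 8, agAct was the most frequent 5-mer (74 sites, 17.5%, against 11.3% of all listed DRACH sites) and ggAct came next (52 sites, 12.3%, against 15.9%).

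In CAOV3 m6A was lower with STM3675 in nearly all of these genes. Over the 228 member DRACH sites with at least 20 reads in all 4 libraries, the mean level was 9.71% and 9.41% in the STM3675 libraries, against 43.4% and 43.6% in the DMSO libraries. The same means over all 77040 tested DRACH sites were 10.9% and 11.1% with STM3675, against 44.9% and 46.0% with DMSO. Of the 228 member sites, 158 fell (69.3%, against 73.9% of all tested DRACH sites), in a quasi-binomial test whose p-values were adjusted over all tested sites (Benjamini-Hochberg, threshold 0.05). Their median difference was -25.6 points, against -28.4 points over all tested DRACH sites. All 80 member sites at 50% or more with DMSO fell, where 99.9% of all such sites did. Outside DRACH 21 of 438 member sites fell (4.79%, against 7.87% of all such sites), and their median difference was -1.51 points. Over all 666 tested member sites, DRACH or not, 179 fell (35.2% of all tested sites did) and 2 rose (0.309% of all). Every listed site had reached 25% in at least 1 DMSO library and none was listed for an STM3675 library alone, which favours falls at the sites listed because of CAOV3. Among the 550 tested member sites that passed in another line as well or instead, 170 fell (30.9%) and 2 rose. The share of all sites under this filter is not given here, so members cannot be set against it.

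Summed over its tested DRACH sites, a level could be given for 31 genes, and 29 of them fell (91.1% of all tested genes did) while 0 rose (0.0294% of all). By limma on the log odds the counts were again 29 and 0. The median member gene was at 8.89% with STM3675 and 42.9% with DMSO, and its median difference was -34.9 points, against -35.3 points over all 10209 tested genes. The libraries of both groups did not overlap in those 29 genes (94.6% of all tested genes were lower with no overlap).

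**Figure D1:**
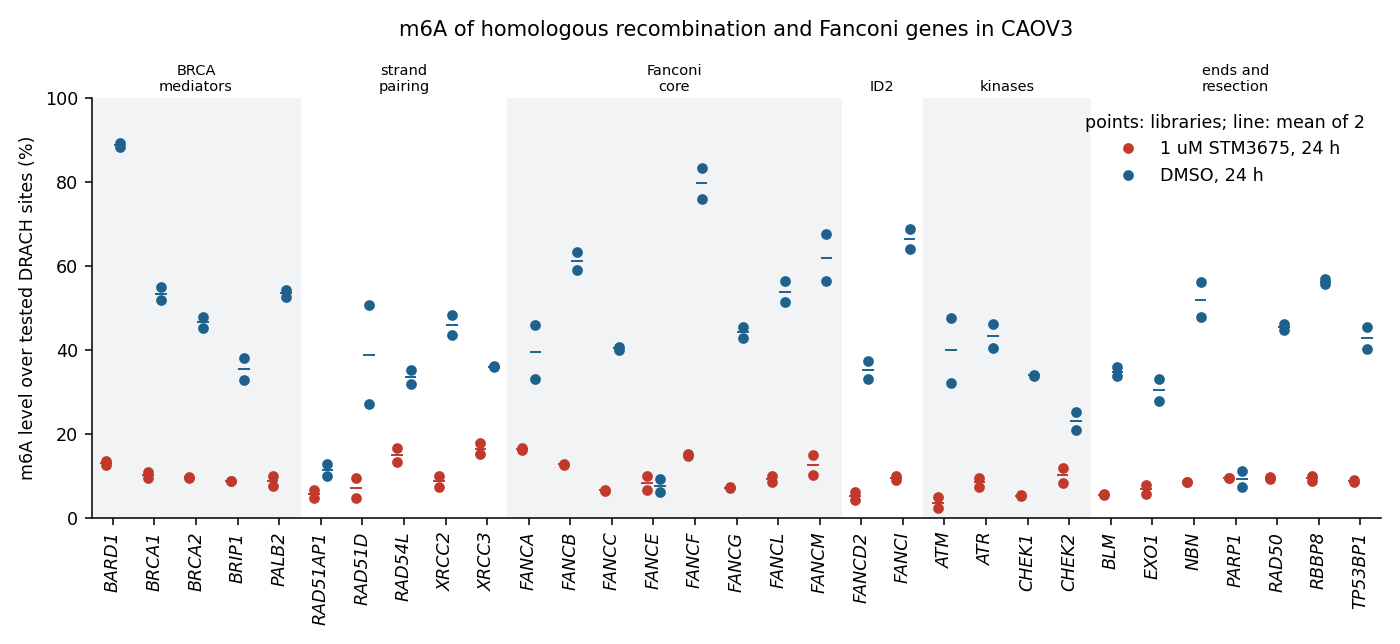
m6A level (%) of 31 genes in CAOV3, summed over the tested DRACH sites of each; points are the 2 libraries with STM3675 (red, left) and the 2 with DMSO (blue, right), and short lines are their means. With STM3675 no gene's mean exceeded 16.5%, while with DMSO the means ran up to 88.7% in BARD1, and only FANCE and PARP1 overlapped.

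The BRCA mediators prepare resected DNA for strand pairing, and all 5 of them fell. BARD1, the partner that forms a ubiquitin ligase with BRCA1, had the highest DMSO level of all members: 12.7% and 13.6% with STM3675, against 88.2% and 89.2% with DMSO. All 5 of its tested DRACH sites were called lower. The site in its last exon 11 was at 14.4% and 14.9% with STM3675, against 100% and 97.9% with DMSO. PALB2, which bridges BRCA1 and BRCA2, had 8.73% ± 1.6 with STM3675 and 53.5% ± 1.2 with DMSO (SD, n = 2 each, as for all errors below). Of its 15 tested DRACH sites, 12 were lower, and those of exon 5 summed to 11.3% ± 3.4 with STM3675 and 68.3% ± 0.98 with DMSO. BRCA2, a mediator of recombination at resected DNA, was at 9.69% ± 0.13 with STM3675 and 46.6% ± 1.8 with DMSO. In BRCA2 the long exon 11 (7 tested sites, 8.62% ± 1.7 with STM3675 against 52.4% ± 6.4 with DMSO) and the last exon 27 (4 sites, 13.6% ± 1.9 with STM3675 against 72.7% ± 1.1 with DMSO) were both far lower, as a description. BRCA1 was at 10.3% ± 0.91 with STM3675 and 53.4% ± 2.2 with DMSO, and BRIP1, a helicase that binds BRCA1, at 8.89% ± 0.034 with STM3675 and 35.4% ± 3.7 with DMSO. In BRCA1 a site outside DRACH stood next to the motif in sequence: position 43094290 of chromosome 17 in exon 10, ggAcg, had 11.8% and 10.3% with STM3675, against 80% and 76.9% with DMSO (adjusted p = 6.3e-12; named after its values were seen). Of 10 tested member sites outside chromosome 8 that differ from DRACH only by such a final G, 4 fell. Of all such sites, on any chromosome, 42.3% did.

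RAD51B, RAD51C, RAD51D, XRCC2, XRCC3, RAD51AP1 and RAD54L help strands pair, and all 5 with a tested DRACH site fell. Their median level with DMSO was 36.0%, against 53.4% for the mediators. XRCC2 had 8.71% ± 1.7 with STM3675 and 46.0% ± 3.5 with DMSO, RAD51D 7.17% ± 3.4 with STM3675 and 38.9% ± 17 with DMSO, and XRCC3 16.5% ± 1.9 with STM3675 and 36.0% ± 0.15 with DMSO. RAD54L, a DNA translocase, was at 13.4% and 16.7% with STM3675, against 35.3% and 31.8% with DMSO. RAD51D had 4.76% and 9.57% with STM3675, against 27.2% and 50.6% with DMSO, a wide pair that still did not overlap. RAD51AP1, which promotes strand pairing, was low in both groups: 6.61% and 4.85% with STM3675, against 9.95% and 12.9% with DMSO, over 2 sites. Its adjusted p was 0.021. It was 0.056 without DMSO replicate 2, 0.073 and 0.14 without either STM3675 library, and 0.65 over all its tested sites. RAD54L lost its call over all tested sites too (adjusted p = 0.27), and with sites that passed in another line (0.085). RAD51B and RAD51C could be read only outside DRACH. None of the 4 tested sites of RAD51B passed the test, and 1 of 2 in RAD51C was lower, at 1.16% with STM3675 against 18.9% with DMSO (adjusted p = 0.036).

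The Fanconi core complex is the ubiquitin ligase of the crosslink pathway, and 7 of its 8 members fell. FANCF, an adaptor within the complex, had 14.9% and 15.3% with STM3675, against 75.9% and 83.4% with DMSO. All 8 of its tested DRACH sites lay in the 1098 nt nearest the start of its only exon, all 8 were called lower, and 6 of them were at 50% or more with DMSO. FANCL, the catalytic subunit, was at 8.46% and 9.92% with STM3675, against 51.3% and 56.5% with DMSO, all 5 sites lower. FANCM, the translocase that anchors the complex to DNA, had 12.6% ± 3.4 with STM3675 and 62.0% ± 7.8 with DMSO, and FANCB 12.8% ± 0.19 with STM3675 and 61.2% ± 3.0 with DMSO. FANCG had 7.26% ± 0.29 with STM3675 and 44.2% ± 1.8 with DMSO, and FANCC 6.61% ± 0.15 with STM3675 and 40.4% ± 0.57 with DMSO. FANCA had 16.5% ± 0.41 with STM3675 and 39.6% ± 9.2 with DMSO.

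FANCE, which joins the core complex to FANCD2, was the exception. Its 3 tested DRACH sites summed to 10.1% and 6.73% with STM3675, against 6.09% and 9.32% with DMSO, and the groups overlapped (adjusted p = 0.85). With no minimum per site, FANCE was lower by 5.69 points (adjusted p = 0.059). Its DMSO level was below the median of sites outside DRACH in those libraries (10.8% and 11.1%). FANCD2 and FANCI, the pair that the core complex ubiquitinates, both fell. FANCI had 9.96% and 9.03% with STM3675, against 64.0% and 68.8% with DMSO, and FANCD2 had 5.19% ± 1.4 with STM3675 and 35.1% ± 3.0 with DMSO.

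The kinases ATM and ATR start the damage signal, and CHEK1 and CHEK2 carry it on. All 4 fell. ATR was at 8.49% ± 1.6 with STM3675 and 43.3% ± 4.0 with DMSO, CHEK1 at 5.34% ± 0.22 with STM3675 and 33.9% ± 0.27 with DMSO, and CHEK2 at 10.1% ± 2.4 with STM3675 and 23.1% ± 3.1 with DMSO. ATM had 100 listed sites but 1 that passed the read minimum, at 5% and 2.27% with STM3675, against 47.6% and 32.1% with DMSO. In exon 4 of ATR (878 nt) 5 tested sites summed to 8.06% ± 0.86 with STM3675 and 72.1% ± 0.96 with DMSO, while 3 sites of its last exon 47 summed to 6.67% ± 2.4 with STM3675 and 26.4% ± 2.1 with DMSO.

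Among the genes of end sensing, resection and dissolution, 6 of 7 fell. RBBP8 (also called CtIP, which starts resection) had 9.43% ± 0.74 with STM3675 and 56.2% ± 0.84 with DMSO. NBN and RAD50, of the complex that binds broken ends, had 8.57% ± 0.12 and 9.55% ± 0.34 with STM3675, against 52.0% ± 5.9 and 45.4% ± 1.0 with DMSO. TP53BP1, which holds resection back, had 8.78% ± 0.25 with STM3675 and 42.9% ± 3.6 with DMSO over 24 sites, the most of any member. The helicase BLM was at 5.53% ± 0.14 with STM3675 and 34.9% ± 1.6 with DMSO, and the exonuclease EXO1 at 6.90% ± 1.5 with STM3675 and 30.5% ± 3.7 with DMSO. In exon 13 of EXO1, 1 of 7 tested sites was at 50% or more with DMSO, and it had 6.29% with STM3675 against 97.6% with DMSO. PARP1, which senses nicks and breaks, had 1 tested DRACH site, with 9.52% and 9.43% with STM3675, against 7.41% and 11.1% with DMSO (53 to 84 reads per library, adjusted p = 0.99).

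At the 10 single sites with the largest falls, no STM3675 library was above 22.6% and no DMSO library below 76.2%. The BLM site in exon 7 was at 7.89% and 10.8% with STM3675, against 98.4% and 98.1% with DMSO. The FANCI site in the last exon 38 had 8.56% and 9.06% with STM3675, against 98.1% and 92.9% with DMSO. In exon 4 of ATR the named site had 7.14% and 7.04% with STM3675, against 86.0% and 90.5% with DMSO. No pair of groups overlapped at these sites, but they were chosen as the largest falls among called sites. The choice itself leads to this and to the small p-values below. Of all tested DRACH sites, 186 of 228 member sites and 65515 of 77040 in all genes were lower with no overlap. FANCC (last exon 15) had 9.33% and 10.1% with STM3675, against 92.6% and 86.5% with DMSO. RBBP8 (exon 11) had 15.3% and 22.6% with STM3675, against 97.4% and 97.9% with DMSO. TP53BP1 (exon 17) had 3.61% and 12.2% with STM3675, against 84.2% and 85.5% with DMSO. The spread within the STM3675 pair was widest at these last 2 sites, and remained far under the difference. FANCL (last exon 14) had 15.3% and 18.6% with STM3675, against 92.5% and 93.4% with DMSO. FANCF had 16.8% and 21.3% with STM3675, against 91.6% and 93.3% with DMSO. FANCG (last exon 14) had 9.87% and 4.32% with STM3675, against 76.2% and 83.6% with DMSO. Each of the 10 sites had 52 to 362 reads per library, and adjusted p-values ran between 2.5e-116 and 4.9e-26; these p-values use the same dispersion, 1.67, at every site.

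Some of the highly methylated sites kept more m6A than others. Of the 26 member DRACH sites at 90% or more with DMSO, in 15 genes, the level with STM3675 ranged between 6.29% (EXO1) and 53.7% (FANCA). The 3 sites with the highest ratio of STM3675 to DMSO level, among those at 50% or more with DMSO, were in FANCA, XRCC3 and BRCA1.
FANCA, chromosome 16, position 89738460: gaAct
XRCC3, chromosome 14, position 103698899: ggAcc
BRCA1, chromosome 17, position 43094242: agAct
The FANCA site, in the last exon 43, had 61.5% and 45.8% with STM3675, against 90.3% and 100% with DMSO (ratio 0.564, adjusted p = 7.5e-06). It had only 24 to 51 reads per library. The XRCC3 site had 25.6% and 31.8% with STM3675, against 63.2% and 46.0% with DMSO (ratio 0.526, adjusted p = 0.00094). The BRCA1 site had 14.7% and 38.1% with STM3675, against 52.2% and 71.4% with DMSO (ratio 0.427, adjusted p = 0.0025). The groups did not overlap at any of the 3 sites, but by limma on the log odds none passed (adjusted p = 0.053, 0.13 and 0.12 in the same order). The calls of FANCA and XRCC3 were each lost without either STM3675 library and without 1 DMSO library, replicate 2 for FANCA and replicate 1 for XRCC3 (adjusted p up to 0.10 and 0.21). That of BRCA1 was lost without any 1 of the 4 libraries (up to 0.39). The 2 sites called higher lie outside DRACH and were low in both groups. In CHEK2 (chromosome 22, position 28725338, ggAgg) the level was 9.24% and 11.4% with STM3675, against 3.36% and 0% with DMSO (adjusted p = 0.0086). In RAD54L (chromosome 1, position 46248096, ccAct) it was 18.9% and 16.1% with STM3675, against 3.03% and 0% with DMSO (adjusted p = 0.0072). Both calls were lost without DMSO replicate 2 and without either STM3675 library (adjusted p = 0.13 to 0.24 for CHEK2 and 0.11 to 0.19 for RAD54L).

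Position within the exon went with the level. Member DRACH sites of internal exons that lay more than 200 nt from both exon edges averaged 9.56% with STM3675 and 57.1% with DMSO over 43 sites. Those further than 100 and up to 200 nt from an edge averaged 9.21% with STM3675 and 48.2% with DMSO over 32 sites. Those within 100 nt averaged 8.21% with STM3675 and 21.2% with DMSO over 59 sites, of which 3 were at 50% or more with DMSO. The DMSO means were ordered by distance from the junction, and the STM3675 means all lay between 8.21% and 9.56%. All tested DRACH sites of internal exons were ordered alike with DMSO, at 55.4%, 49.2% and 24.1%. Low m6A near splice junctions is known from other cells. In last exons the member sites averaged 9.81% with STM3675 and 47.4% with DMSO over 82 sites. By sequence, member sites were read outside chromosome 8 only. The 24 sites at gaAct averaged 10.7% ± 11 with STM3675 and 60.8% ± 30 with DMSO (SD over sites), the highest DMSO mean of any 5-mer. The 6 sites at agAcc averaged 8.78% ± 3.4 with STM3675 and 11.4% ± 4.4 with DMSO, the lowest. The 32 member sites at ggAct averaged 9.47% with STM3675 and 47.6% with DMSO. The 13458 tested ggAct sites of all genes, chromosome 8 included, averaged 13.4% with STM3675 and 59.3% with DMSO.

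**Figure D2:**
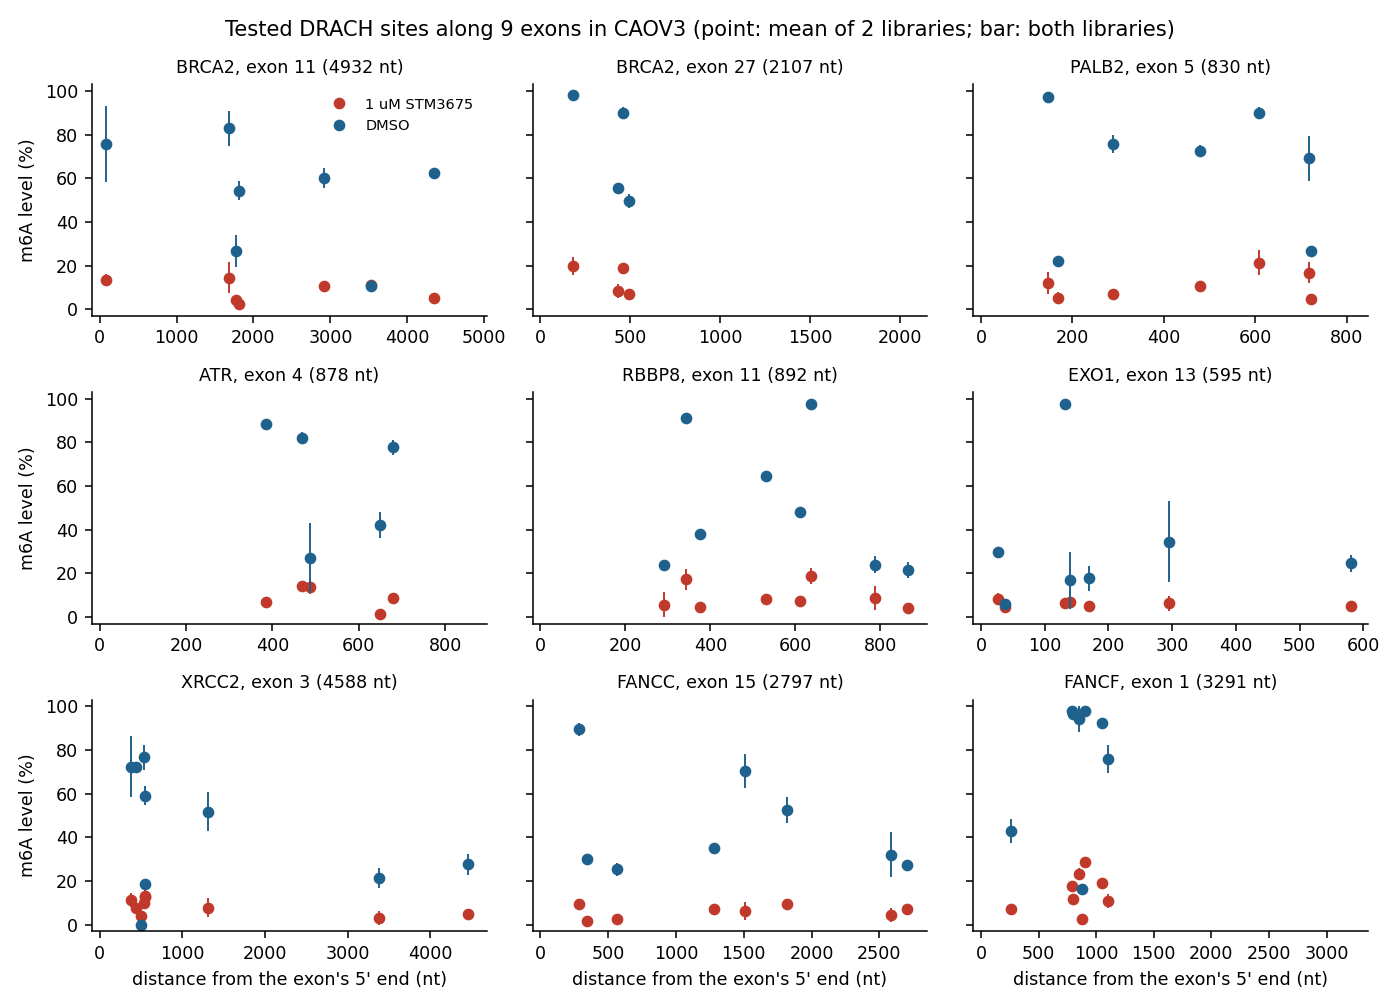
m6A level (%) of the tested DRACH sites in 9 exons of members against their distance from the exon's 5′ end (nt) in CAOV3; red points are means of 2 libraries with STM3675, blue points of 2 with DMSO, and bars join both libraries. Highly and weakly methylated sites alternated within an exon with DMSO (10.7% to 83.0% in exon 11 of BRCA2, 21.4% to 97.6% in exon 11 of RBBP8), and nearly all blue points stand above their red ones.

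The other genes of the pathway, 66 symbols such as MRE11 and the RPA subunits, were read in the same way. A level could be given for 60 of them, of which 52 fell (86.7%, against 91.1% of all tested genes) and 0 rose, with a median difference of -39.1 points, against -35.3 points over all genes. The most negative differences were in SLX4, a nuclease scaffold (1.25% ± 1.8 with STM3675 and 88.9% ± 1.9 with DMSO), HROB (14.0% ± 1.8 with STM3675 and 89.0% ± 6.5 with DMSO) and ZSWIM7 (12.8% ± 3.8 with STM3675 and 82.5% ± 0.76 with DMSO). At the other end were PARP2, a relative of PARP1 (10.2% ± 5.3 with STM3675 and 10.7% ± 1.2 with DMSO), UBE2T, the ubiquitin-conjugating enzyme of FANCL (11.2% ± 3.0 with STM3675 and 11.2% ± 4.3 with DMSO), and RPA2, the 1 of them with a positive difference (14.8% ± 5.0 with STM3675 and 7.27% ± 0.85 with DMSO), none of which passed the test. With FANCE and PARP1 they share a DMSO level of 7.27% to 11.2%, close to the median of sites outside DRACH in CAOV3.

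Read coverage gave a second readout. Reads with A or G were summed over all listed sites of a gene and scaled to CPM (the usual unit of reads relative to library size) with edgeR's library factors, so a read that covers several sites is counted at each, and CPM of different genes are not comparable. In bulk libraries less RNA per cell and fewer cells that express a gene cannot be told apart. With STM3675, 13 of 33 members were lower (25.6% of all 12793 genes were) and 5 were higher (26.8% of all), by edgeR's quasi-likelihood test with Benjamini-Hochberg adjustment. The median log2 fold of members was -0.15, against -0.01 over all genes, and 21 of 33 were below 0.

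**Figure D3:**
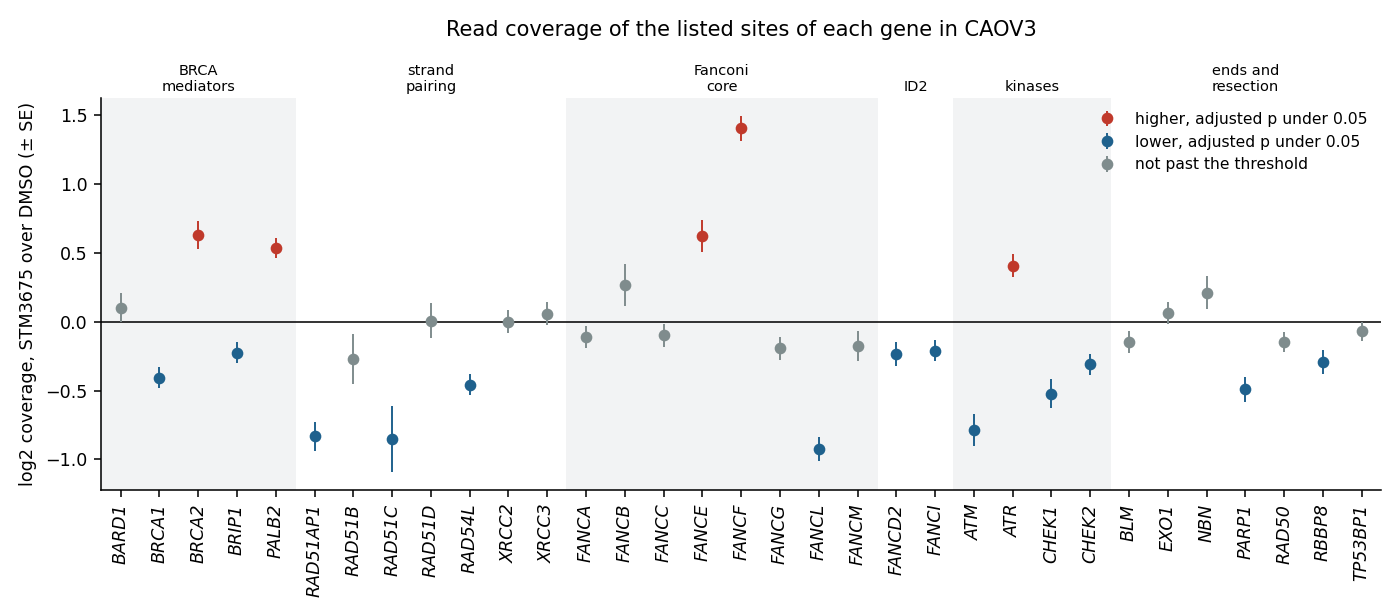
log2 fold of read coverage, STM3675 over DMSO in CAOV3, for each of the 33 genes by role; points are edgeR estimates with their standard errors, red where higher and blue where lower at an adjusted p under 0.05. FANCF stands highest at 1.41 and FANCL lowest at -0.92, and BRCA2 and PALB2 lie above 0 while BRCA1 and BRIP1 lie below it.

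FANCF changed the most. It had 99.4 and 99.0 CPM with STM3675, against 34.8 and 40.1 CPM with DMSO, a log2 fold of 1.41 ± 0.09 (SE; adjusted p = 1.7e-06). Its groups were far apart. BRCA2 had 185 and 161 CPM with STM3675, against 122 and 101 CPM with DMSO (log2 fold 0.63 ± 0.10, adjusted p = 0.00057). PALB2 had 137 and 129 CPM with STM3675, against 89.8 and 93.6 CPM with DMSO (0.54 ± 0.08). FANCE had 26.2 and 29.1 CPM with STM3675, against 17.7 and 18.2 CPM with DMSO (0.62 ± 0.12), and ATR had 222 and 197 CPM with STM3675, against 167 and 150 CPM with DMSO (0.41 ± 0.09; adjusted p = 0.085 without STM3675 replicate 1). Coverage was thus higher both in FANCF, whose m6A level fell by 64.6 points, and in FANCE, whose level did not pass the test.

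The lower members included the ligase subunit and genes of strand pairing. FANCL had 78.1 and 83.4 CPM with STM3675, against 142 and 164 CPM with DMSO (log2 fold -0.92 ± 0.09, adjusted p = 1.8e-05). RAD51AP1 had 73.1 and 72.6 CPM with STM3675, against 145 and 114 CPM with DMSO (-0.83 ± 0.11). ATM had 44.9 and 35.9 CPM with STM3675, against 73.7 and 65.9 CPM with DMSO (-0.79 ± 0.11). None of these pairs overlapped, but these genes were chosen as the largest changes. Of all genes, 38.9% were lower and 37.9% higher with no overlap. RAD51C rested on 3 sites, with 2.59 and 3.51 CPM with STM3675, against 5.87 and 5.07 CPM with DMSO (-0.85 ± 0.24, adjusted p = 0.013, and 0.15 without STM3675 replicate 1). CHEK1 (-0.52), PARP1 (-0.49), RAD54L (-0.46), BRCA1 (-0.41), CHEK2 (-0.31), RBBP8 (-0.29), FANCD2 (-0.23), BRIP1 (-0.22) and FANCI (-0.21) were lower too. By role, 3 of 4 kinases, both ID2 genes, 3 of 7 strand pairing genes and 2 of 5 mediators were lower. So were 2 of 7 genes of end processing and 1 of 8 core genes, while 2 mediators, 2 core genes and 1 kinase were higher. Over all genes, 25.6% were lower and 26.8% higher. The calls of CHEK2, RBBP8, FANCD2, BRIP1 and FANCI were lost without either STM3675 library (adjusted p between 0.076 and 0.41). FANCD2, BRIP1 and FANCI missed the threshold with DESeq2 (adjusted p = 0.084, 0.051 and 0.085). With only the deepest site of each gene, 5 members were lower and 2 higher, and FANCD2, FANCI and RBBP8 stood above 0 (log2 fold 0.03, 0.27 and 0.04).

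Of 25 genes of replication and proliferation, 19 were lower (25.6% of all genes were) and 1 higher (26.8% of all). Their median log2 fold was -0.52, against -0.15 for members. PCNA was at -0.60, TOP2A at -0.56 and MKI67 at -0.26. Markers of other cell types moved too: the 2 tested fibroblast markers were lower (median log2 fold -1.67; summed level 39.3 to 44.0 CPM with STM3675, against 77.4 to 92.3 CPM with DMSO), and 2 of 5 had no listed site. The 2 tested leukocyte markers, CD68 and CD14, were higher (0.59; 88.0 to 89.7 CPM with STM3675, against 55.5 to 63.4 CPM with DMSO), while PTPRC and CD3E had no listed site. The part of these genes in the members' coverage was not tested. Of the other 66 pathway genes, 22 were lower (25.6% of all genes) and 18 higher (26.8% of all), with a median of -0.12. RRM2, counted with the proliferation genes, reached -1.26 and ATRIP, the partner of ATR, 1.07.

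Coverage was also read by exon, as a description with no test. In BRCA2 all 14 exons with 20 or more reads in every library were higher with STM3675, and exon 11 and the last exon 27 had log2 folds of 0.58 and 0.78. In PALB2 7 of 8 exons were higher, with 0.48, 0.54 and 0.65 in exons 4, 5 and 13. In ATR 27 of 28 exons were higher. In BRCA1 exon 10 and the last exon 23 had -0.45 and -0.36, and 9 of 11 exons were lower. All 11 exons of ATM, all 13 of RBBP8, all 12 of PARP1, all 7 of CHEK1 and all 5 of RAD51AP1 were lower. Other genes were split, with 7 exons higher and 5 lower in EXO1, 7 and 10 in TP53BP1, 5 and 2 in NBN, 4 and 12 in RAD50, 3 and 2 in XRCC3, 2 and 2 in BARD1, and 1 and 1 in RAD51C. So was FANCA: its last exon 43 had 13.6 and 14.5 CPM with STM3675, against 24.1 and 20.4 CPM with DMSO (log2 fold -0.66), and 6 of its 12 exons were higher.

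Among the 6 DMSO lines the m6A of 8 member genes and 24 member DRACH sites differed. The 97 member DRACH sites with 20 reads in all 12 libraries had these 24 among them (24.7%, against 39.1% of all such sites), and their median range of line means was 14.2 points (14.7 over all). Outside DRACH 53 of 126 member sites differed (40% of all such sites did), and 77 of all 223 (39.5% of all tested sites). Levels could be compared for 24 genes. The 8 that differed (33.3%, against 58.4% of all tested genes) were BARD1, PALB2, RAD54L, RAD51AP1, FANCC, FANCE, FANCL and RBBP8. The difference of these shares was not tested. The quasi-binomial site test used the same dispersion, 1.71, at every site, whatever the spread of that site's replicates. Limma on the log odds, which draws on that spread, called 7 of 24 genes and 7 of all 223 sites. The 4 lines with a similar level outside DRACH gave 5 of 30 genes and 5 of 352 sites, as more could be tested there. The shares of all genes and sites under these alternatives are not given here, so members cannot be set against them.

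CAOV3 was highest and OE21 lowest both for members and for all genes. The mean over the 97 sites was highest in CAOV3 (46.3% ± 0.85), followed by SKOV3 (44.1% ± 1.1), EFO21 (43.9% ± 0.41), A549 (42.8% ± 0.33), COV644 (42.4% ± 0.19) and OE21 (39.4% ± 0.66). The libraries of SKOV3 and EFO21 overlapped, and those of A549 and COV644 nearly touched. Over all 38621 tested DRACH sites the order between the ends was another: CAOV3 (48.4% ± 0.89), COV644 (44.7% ± 0.36), EFO21 (44.1% ± 0.39), A549 (43.6% ± 0.11), SKOV3 (43.2% ± 0.16) and OE21 (40.3% ± 0.23). Against the mean of the other 5 lines, 8 of 24 member genes were higher in CAOV3 (43.1% of all genes were) and 0 lower (0.727% of all). In OE21 4 were lower (29.3% of all) and 0 higher (1.7% of all). Of 24 members, COV644 had 0 higher (10.9% of all genes) and 1 lower (7.22%), SKOV3 1 higher (2.1%) and 1 lower (7.34%), EFO21 0 higher (4.19%) and 0 lower (6.25%), and A549 0 higher (5.06%) and 0 lower (5.94%). The calls were RAD54L, lower in COV644, and in SKOV3 FANCE, which was higher, and FANCL, which was lower. OE21 was the lowest line for 12 of the 24 genes. Levels outside DRACH differed among lines too. Tested member sites there averaged 11.2% in CAOV3, 14.6% in SKOV3, 13.3% in EFO21, 10.7% in A549, 5.76% in COV644 and 5.25% in OE21. With the level outside DRACH removed, limma called 3 of the 24 genes among lines, against 7 without this step. The part of that level in the order of the lines was not tested.

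**Figure D4:**
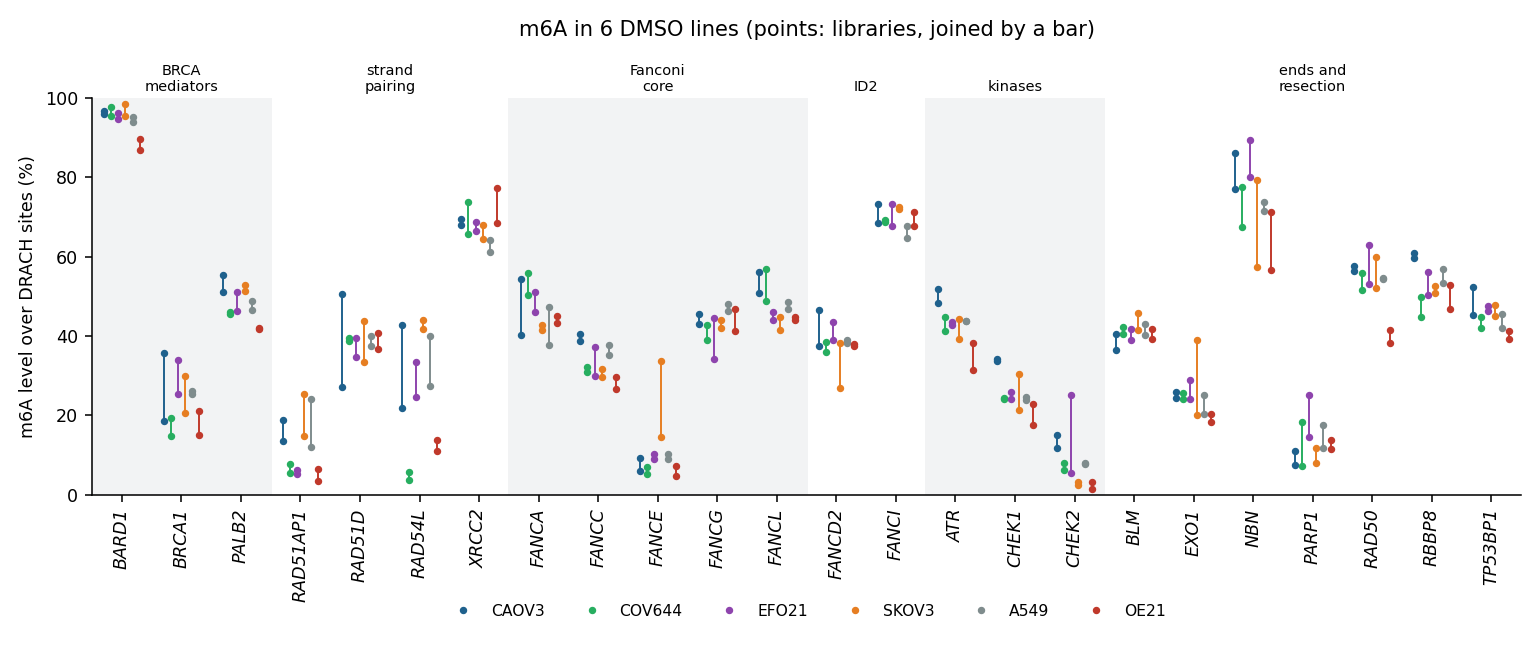
m6A level (%) of the 24 member genes with DRACH sites covered in all 12 DMSO libraries, summed over those sites; each pair of points joined by a bar is the 2 libraries of a line, coloured by line. The median range of line means is 11.1 points, BARD1 stays above 86% in every library, and RAD54L spreads the widest, with COV644 and OE21 lowest.

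RBBP8 and the Fanconi ligase subunit were highest in CAOV3. RBBP8 was at 59.6% and 60.9% in CAOV3, against 44.8% to 56.8% over the 10 other DMSO libraries (adjusted p = 0.0014 for CAOV3 against the other lines). FANCL had 53.4% ± 3.8 in CAOV3 and 52.8% ± 5.8 in COV644, which overlapped, against 43.1% ± 2.3 in SKOV3, the lowest. FANCC had 39.6% ± 1.1 in CAOV3 and 28.2% ± 2.1 in OE21, and PALB2 53.1% ± 3.0 in CAOV3 and 41.9% ± 0.17 in OE21. BARD1 had 86.9% and 89.7% in OE21, against 93.8% to 98.5% in the libraries of the other 5 lines. The call of BARD1 was lost when any of 9 libraries was left out, with an adjusted p of 0.21 at most. FANCE was highest in SKOV3 at 14.6% and 33.6%, against 4.77% to 10.2% in all other libraries, and without SKOV3 replicate 2 it no longer passed (adjusted p = 0.23). That library also had the highest level outside DRACH. RAD51AP1 had 20.2% ± 7.5 in SKOV3 and 5.02% ± 2.1 in OE21, and its call was lost without COV644 replicate 1 or OE21 replicate 1 (adjusted p = 0.068 and 0.12). That of PALB2 was lost without CAOV3 replicate 1 (0.11). Levels of FANCI (66.3% to 72.2% over line means), RAD51D (37.1% to 39.1%) and BLM (38.5% to 43.7%) were close across lines, and none of these 3 passed the test.

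At 7 of the 97 DRACH sites every line was at 90% or more: 2 sites of BLM and 1 each of BARD1, FANCA, FANCI, FANCL and RBBP8. No library was under 89.2% at them, and none of the 7 differed among lines. Both follow largely from the choice of sites at 90% or more in every line, which leaves little room for a range. The share of all tested DRACH sites at that level in every line is not given here. They include the 5 sites of BLM, FANCI, BARD1, RBBP8 and FANCL shown above, and the FANCA site with the highest ratio with STM3675. At 22 of the 97 sites no line mean reached 25%.

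The called member DRACH sites with the largest ranges among lines, 1 per gene, are shown with their sequences.
RAD54L, chromosome 1, position 46247986: ggAct
FANCC, chromosome 9, position 95100342: gaAct
ATR, chromosome 3, position 142449443: ggAct
EXO1, chromosome 1, position 241889607: agAct
TP53BP1, chromosome 15, position 43432561: ggAcc
RBBP8, chromosome 18, position 22993536: agAca
FANCG, chromosome 9, position 35075000: ggAct
FANCE, chromosome 6, position 35458340: agAcc
The RAD54L site, in the first exon, had 41.7% and 44.1% in SKOV3, 27.3% and 40.0% in A549, 42.9% and 21.9% in CAOV3, 24.6% and 33.3% in EFO21, 13.9% and 11.1% in OE21, and 5.71% and 3.64% in COV644 (adjusted p = 4.3e-05). COV644 and OE21 lay below all other libraries. Those 2 lines also had the lowest level outside DRACH, and among the 4 other lines the site did not differ (adjusted p = 0.74). The ATR site of the last exon 47 was highest in COV644 (51.9% and 57.5%), next in EFO21 (41.0% and 42.1%), and between 26.1% and 33.3% in the libraries of the other 4 lines (adjusted p = 0.017). The EXO1 site of the last exon 16 had 57.4% and 58.2% in COV644, 37.0% and 72.7% in SKOV3, and 27.3% to 41.0% in the other libraries. The SKOV3 pair was the widest of that site. Without either COV644 library the ATR site (adjusted p = 0.065 and 0.21) and the EXO1 site (0.056 and 0.099) no longer passed.

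FANCC (last exon 15) ran between 70.3% ± 11 in CAOV3 and 38.3% ± 7.0 in OE21, and TP53BP1 (exon 17) between 44.2% ± 0.42 in EFO21 and 20.4% ± 8.3 in COV644. RBBP8 (exon 11, position 22993536) was at 27.6% ± 4.4 in EFO21 and 5.23% ± 0.82 in OE21. The RBBP8 site that was at 90% or more in every line lies in the same exon. FANCG (exon 12) was at 23.3% ± 5.2 in SKOV3 and 2.10% ± 0.40 in OE21, and the FANCE site at 11.3% and 38.5% in SKOV3 and 4.37% ± 0.90 in OE21. Leaving out 1 library ended the call of FANCC for 7 libraries (both of COV644 and OE21, A549 replicate 1, CAOV3 replicate 2 and SKOV3 replicate 2; adjusted p up to 0.18), of TP53BP1 for COV644 replicate 1 or either EFO21 library (up to 0.25), of FANCG for either OE21 library (up to 0.21) and of FANCE for SKOV3 replicate 2 (0.67). Of these 8 sites 2, RAD54L and FANCG, passed with limma as well. None of the 8 differed among the 4 lines with a similar level outside DRACH (adjusted p from 0.10 to 0.74). Of the other pathway genes, 30 of 55 differed among lines, against 58.4% of all tested genes.

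Coverage differed among lines in every member. All 33 members differed among the 6 lines (99.1% of all 13681 genes did), with a median log2 range of 1.60, against 2.15 over all genes. FANCD2 varied least (log2 range 0.51) and XRCC2 most (3.46). OE21 was the lowest line for 10 members and SKOV3 for 9, and COV644 was the highest for 8. Against the mean of the other 5 lines, OE21 had 17 members lower (35.9% of all genes) and 12 higher (39%), and SKOV3 had 18 lower (32.6%) and 9 higher (38.1%). A549 had 15 higher (37.2%) and 7 lower (32%), COV644 15 higher (39.6%) and 12 lower (35%), and EFO21 14 higher (38.5%) and 8 lower (33.6%).

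**Figure D5:**
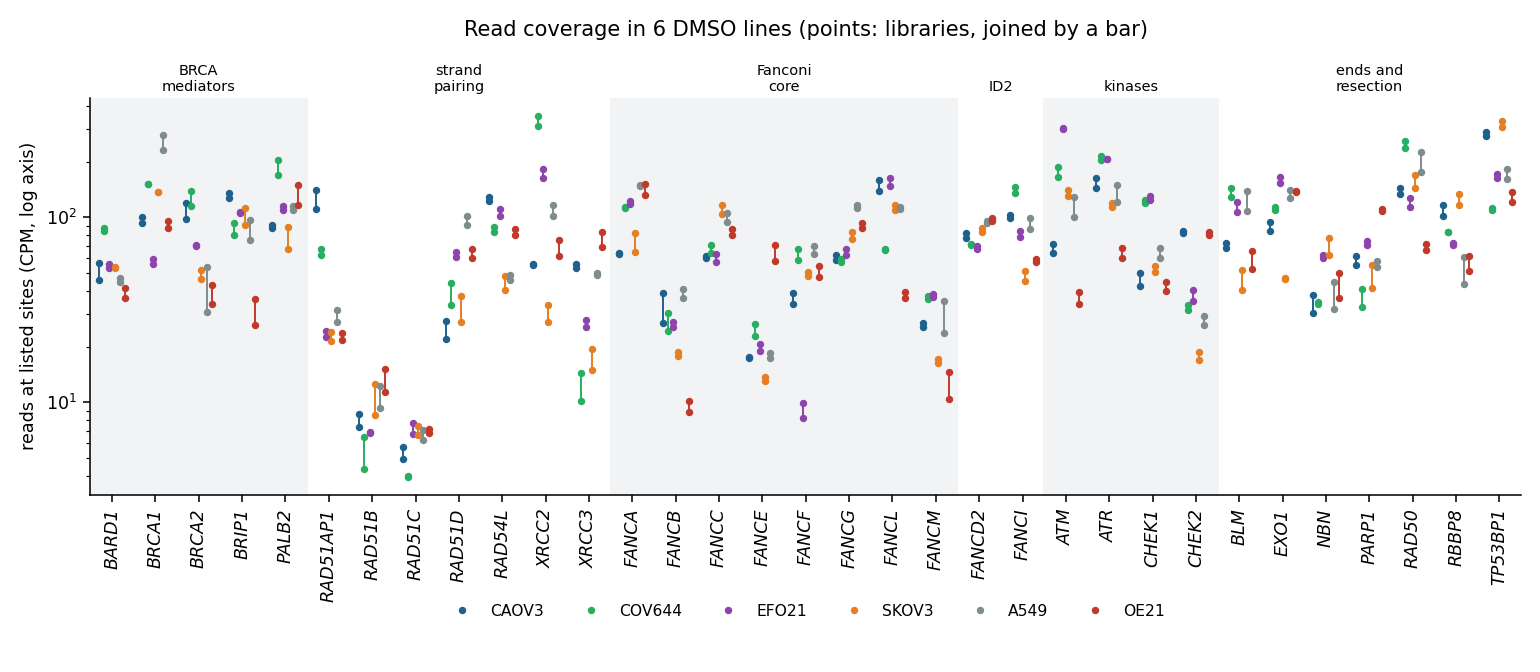
Reads at the listed sites of each of the 33 genes (CPM, log axis) in the 6 DMSO lines; each pair of points joined by a bar is the 2 libraries of a line. The lines spread over the widest range in XRCC2, with COV644 highest at 333 CPM and SKOV3 lowest at 30.4 CPM, and FANCF in EFO21 (9.09 CPM) stands far below its other lines.

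XRCC2 had 354 and 313 CPM in COV644, 162 and 182 in EFO21, 116 and 102 in A549, 75.1 and 62.2 in OE21, 55.6 and 55.3 in CAOV3, and 27.3 and 33.5 in SKOV3. No neighbouring pair of lines in this order overlapped. ATM had 301 and 303 CPM in EFO21, the highest, then 188 and 165 in COV644, 130 and 141 in SKOV3, 130 and 100 in A549, 71.9 and 63.9 in CAOV3, and 39.3 and 34.2 in OE21. Neighbours did not overlap in ATM either, but A549 replicate 1 and SKOV3 replicate 1 were nearly equal. FANCF was lowest in EFO21 (8.22 and 9.97 CPM) and between 33.9 and 69.7 CPM in all other libraries. XRCC3 was highest in OE21 (69.2 and 83.0 CPM) and lowest in COV644 (10.2 and 14.3 CPM). RAD51AP1 was highest in CAOV3 (141 and 111 CPM), with COV644 next (62.4 and 67.9 CPM) and the other 4 lines between 21.4 and 31.4 CPM. FANCE was highest in OE21 (57.8 and 70.9 CPM) and lowest in SKOV3 (13.7 and 13.1 CPM). BRCA1 was highest in A549 (mean 257 CPM) and lowest in EFO21 (58.0 CPM), while BRCA2 was highest in COV644 (127 CPM) and lowest in OE21 (38.6 CPM).

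In CAOV3, the line that was treated, coverage of these genes stood on both sides of the other lines. Against the mean of the other 5 lines its log2 coverage was higher in RAD51AP1 (2.09), CHEK2 (1.26), XRCC3 (0.90), BRCA2 (0.88) and RAD54L (0.86), and lower in RAD51D (-1.15), XRCC2 (-0.93), ATM (-0.88) and FANCA (-0.87), all past the threshold in edgeR's quasi-likelihood test. In all, 11 members were higher (39.7% of all genes) and 13 lower (34.1%).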

How the data were processed

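GLORI libraries of polyadenylated RNA from 6 human cancer cell lines were analysed, 14 in all with 2 per group. The submitters' processing notes name cutadapt, STAR and the build GRCh38; their versions and settings, and how sites were called, are not stated in the material used. For every site and library the authors deposited read counts (A or G) with the A fraction among them. D columns were taken as DMSO and T columns as treated. The fraction times the count was whole within 1e-06, so A counts were recovered. All listed sites reached 20 reads and 25% in at least 1 DMSO library. No other columns of samples were left out.

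The members and gene lists were chosen with earlier results of these data known. Sites with at least 20 reads in every library compared were tested over the whole table: a quasi-binomial model in R 4.3.3, with the dispersion moderated by squeezeVar of limma 3.58.1 and floored at 1, F tests, Benjamini-Hochberg adjustment and a threshold of 0.05. Gene levels sum A and G reads over tested DRACH sites; 1 line against the other 5 was tested on log odds with 0.5 added to each sum. Coverage was tested with edgeR 4.0.16 (TMM, filterByExpr, quasi-likelihood); DESeq2 1.42.0 was an alternative. Exon values, and alternatives with no minimum per site or with 4 lines, were added after seeing the data. Tables and figures used version 1.17.8 of data.table, Python 3.11.15, pandas 2.3.3, numpy 2.4.6 and matplotlib 3.10.9.

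Tested on simulated data in the CAOV3 design, the gene model recovered 89% of 100 genes lowered to 0.5 of their level among 10209, and called 3 unchanged genes. The site model recovered 21% of 100 sites lowered to 0.5 and 42% of 100 lowered to 0.25 among 185923. The edgeR step recovered 93% of 100 genes changed by a fold of 2 among 12749, and called 9 unchanged genes. All 33 members are named. Sites given by library are the 10 largest falls with 50 reads in each library, all called higher, the 3 highest ratios at 50% or more, and the 8 largest ranges among lines, 1 per gene; for coverage, the 6 largest changes and the 6 largest ranges among lines, with the remaining genes in short. Replicates of each group differed by more than counting noise (chi-square per degree of freedom 3.59 to 18.9), so none were merged. Whether duplicates were removed before counting is not known, so errors from read numbers cover counting only.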

Additional observations from a re-analysis of the deposited data

How the results depend on the processing

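The count of member genes with lower m6A with STM3675 was 20 to 29 under all alternatives run: 20 with a minimum of 50 reads per site, where fewer genes could be tested, and 28 to 29 when 1 library was left out. For member sites, 69 were lower and 1 higher at 50 reads (156 sites tested) and 225 lower and 4 higher at 10 reads; leaving out 1 library gave 107 to 149 lower and 0 to 2 higher. Among lines, 123 of 583 member sites differed at 10 reads, 10 of 26 at 50 reads and 7 of 223 by limma on the log odds. In the 4 lines of similar level outside DRACH 5 of 352 did, and 41 to 106 did with 1 library left out. For member genes among lines, the count was 13 of 30 at 10 reads, 4 of 12 at 50 reads and 17 of 26 with all tested sites. It was 13 of 31 with no minimum per site and 5 of 30 in the 4 lines. By limma with the level outside DRACH removed it was 3 of 24, and with 1 library left out 6 to 10. Coverage with STM3675 gave 5 lower and 2 higher members from the deepest site per gene, 10 lower and 5 higher with DESeq2, and 7 to 15 lower and 4 to 8 higher with 1 library left out: 7 lower without STM3675 replicate 1, 8 lower without STM3675 replicate 2, and 8 higher without DMSO replicate 1. From the deepest site FANCD2 (0.030), FANCI (0.27) and RBBP8 (0.042) stood above 0 in log2 fold. BRCA2 m6A did not pass at 50 reads per site (adjusted p = 0.26). The cause was not tested. All 33 members differed in coverage among lines under each alternative, except RAD51C without either COV644 library (adjusted p = 0.063 and 0.064).

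The replicate numbers were not taken to pair libraries: deviations of same-numbered libraries correlated at 0.00063 in CAOV3 and at -0.023 to 0.021 over pairs of lines. With the replicate block, 166 member sites were lower and 2 higher and 29 genes lower with STM3675, 79 sites and 9 genes differed among lines, and coverage gave 13 lower and 6 higher, with 33 differing among lines. Depth limits single sites: at the read minimum of 20 a difference of a few points is not detectable, and 712 of the 1378 member sites were not tested in CAOV3.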

Other observations

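Outside DRACH, sites that differ from the motif only by a final G were looked at after the values were seen. Of 10 such member sites tested in CAOV3 outside chromosome 8, 4 fell with STM3675 (42.3% of all such sites on any chromosome did). BRCA1 (exon 10, ggAcg) had 11.8% and 10.3% with STM3675, against 80% and 76.9% with DMSO. RAD51D (chromosome 17, position 35100849, last exon, agAcg) had 2.38% and 20.8% with STM3675, against 59.5% and 63.0% with DMSO. RAD50 (chromosome 5, position 132642259, last exon, ggAcg) had 4.99% and 8.19% with STM3675, against 37.7% and 38.4% with DMSO. XRCC2 (chromosome 7, position 152644893, last exon, gaAcg) had 4.08% and 0% with STM3675, against 51.6% and 22.2% with DMSO. The groups did not overlap at these 4 sites, but they are the called ones, and the call itself leads to this. Of all tested sites outside DRACH, 93 of 438 member sites and 26669 of 108883 in all genes were lower with no overlap. The other 6 lay between 2.17% and 20.6% with DMSO and did not pass the test. The 10 member sites averaged 10.1% with STM3675 and 29.1% with DMSO, and the 5198 tested sites of this kind in all genes 12.3% with STM3675 and 30.3% with DMSO.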
